A study of Arabidopsis thaliana with 24 samples.

Results

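The 43 probe sets described here had high signal in blue-grown Arabidopsis seedlings with the cop1-6 mutation, and in wild type (WT) their signal was not raised by abscisic acid (ABA). They were chosen from mean raw signals, with any mean under 20 set to 20. Blue-grown cop1-6 and atmyc2 cop1-6 seedlings each had to reach at least 3 times the WT blue light mean, and WT with ABA at most 1.5 times that mean. Of 22677 probe sets left after control and plastid-encoded ones were set aside, 187 passed both blue light folds. Of these 187, 43 met the ABA limit and 144 lay above it, and the 144 are used below as the comparison set. The array held 22810 probe sets in all. The values that chose the 43 are given as a description, with no test.

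The study measured 4 lines of 10-day-old Columbia seedlings, namely the atmyc2 cop1-6 double mutant, the cop1-6 single mutant, the atmyc2 single mutant and WT. Each line was grown at 22 °C in constant darkness, in constant blue light at 35 µmol per s per m2, or in the same blue light with ABA at 0.5, whose unit the labels write as um. Every one of the 12 groups had 2 arrays, labelled as biological replicates, which gave 24 arrays of an Affymetrix platform. The labels give whole seedlings as the material and no further detail of the atmyc2 allele. No probe set is annotated to COP1 or MYC2 in the table used here, so the genotypes were not checked against the mutated genes.

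COP1 is a ubiquitin ligase that in darkness sends light-response transcription factors such as HY5 for degradation, so that cop1 mutants show features of light-grown seedlings without light. AtMYC2, a transcription factor of the bHLH family, is known from jasmonate signalling and also takes part in ABA responses and in seedling growth under blue light. ABA is the hormone of drought responses and seed dormancy.

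Spike-in control signal differed with the growth condition. Its mean per array was 209 to 338 in dark-grown double mutant and cop1-6, 862 to 986 in dark-grown atmyc2 and WT, 5.01 to 12.7 in the blue light arrays, and with ABA it was 77.3 to 126. The 25S ribosomal RNA control lay at 769.5 to 2762 with ABA, 28.5 to 96.3 in blue light and 4.6 to 189.9 in darkness. Differences between conditions, and in darkness those of cop1-6 or the double mutant from lines with intact COP1, cannot be told apart from these differences between array sets. PSAN, a nuclear-encoded photosystem I subunit, averaged 1882 to 2449.8 signal units in the 4 blue-grown lines and 36.6 to 721 in the 4 dark-grown lines. Root marker PYK10, a beta-glucosidase, was at 2705 to 6217 in all 12 groups. The other root marker with a tested probe set, EXPA7, was dimmer and less even. It averaged 3.40 in the dark-grown double mutant and 40.2 in dark-grown atmyc2. With ABA it averaged 4.65 in the double mutant, 40.3 in cop1-6, 53.6 in atmyc2 and 56.7 in WT. The part of root content in the members' values was not tested. As RNA came from whole seedlings, fewer cells of a type and less RNA per cell cannot be told apart. Replicate arrays correlated at 0.958 to 0.993 across probe sets, except for the cop1-6 pair with ABA at 0.931. Replicate 1 of that pair was nearest to the double mutant with ABA (0.983), and replicate 2 to WT with ABA (0.959). In blue light alone both arrays of WT, of atmyc2 and of the double mutant were also nearest to another line.

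Across the members, the median of the group means in blue light was 147 signal units in the double mutant, 185 in cop1-6, 45.1 in atmyc2 and 36.0 in WT. With ABA these medians were 26.1 in the double mutant, 67.5 in cop1-6, 29.1 in atmyc2 and 27.6 in WT. In darkness they were 26.2, 22.4, 14.2 and 19.0 for the same 4 lines. Blue light in the cop1-6 lines therefore gave the high values that the choice required, and cop1-6 with ABA came next. The medians of the dark-grown lines and of the double mutant with ABA lay nearest to the dim level of 19.1. This level is the 40th percentile of all signals on the arrays. WT and atmyc2 with ABA were only a little farther from it. In 26 members cop1-6 blue was the highest of the 12 groups, and in 8 it was double mutant blue. The other 9 members had their highest mean elsewhere, with 3 in WT darkness, 3 in cop1-6 with ABA, 2 in the double mutant with ABA and 1 in double mutant darkness.

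**Figure D1:**
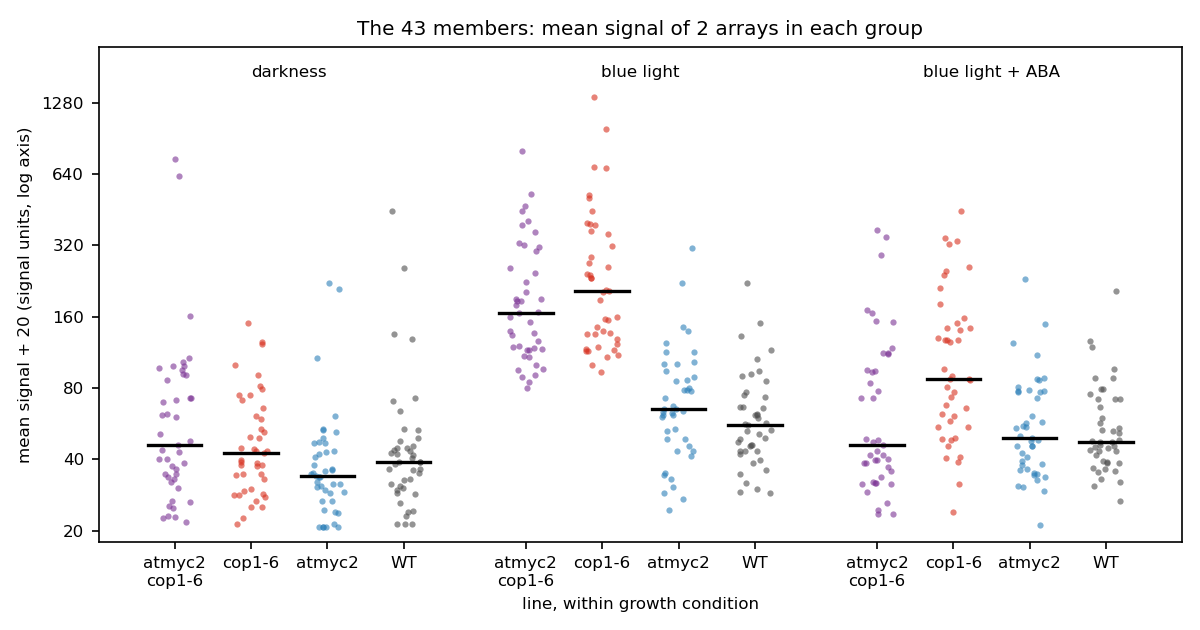
Mean signal plus 20, on a log axis in signal units, of each of the 43 members (points) in the 12 groups of 2 arrays, with a black line at the median of the members. The 2 blue-grown cop1-6 lines are high by choice, with a median group mean of 147 in the double mutant and 185 in cop1-6, against 36.0 in WT.

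Single arrays showed how firmly each member met the choice. All 4 blue light arrays of the double mutant and cop1-6 lay above both WT arrays in 38 of 43 members, and in 21.1% of the 22677 probe sets. In 19 members all 4 arrays reached 3 times the WT mean, in 19 members 3 of them did, and in 5 members 2 did. Replicate 1 was at least 2 times replicate 2 in 11 members for the double mutant and in 7 for cop1-6, while the opposite held in 4 and 3. Only 9 members met all criteria when each array of the rule was left out in turn. These were 245038_at, 245275_at, 246072_at, 249850_at, 250666_at, 253496_at, 254741_s_at, AT3G28540 and AT1G70810.

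**Figure D2:**
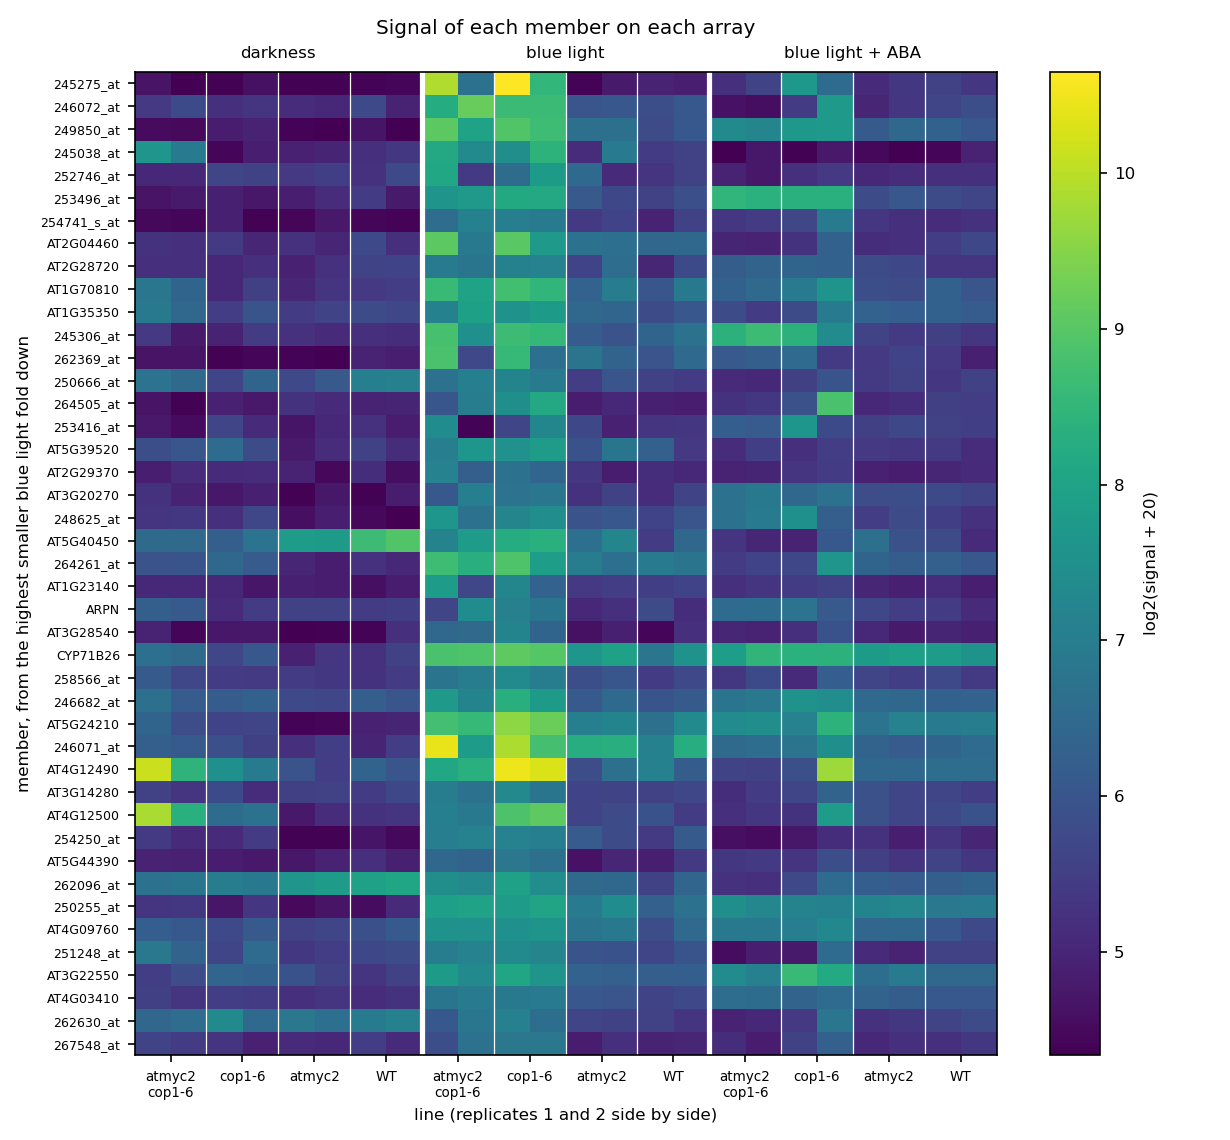
Signal of each member (down, ordered by the smaller of its blue light folds) on each of the 24 arrays (across, replicates 1 and 2 of a line side by side), coloured by log2 of the signal plus 20. Some members are uneven between the 2 arrays of a group, such as 245275_at at 928 and 83.6 in the blue-grown double mutant.

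The table of probe set annotation gave 20 members a gene and listed none for 23. ARPN and CYP71B26 carry a symbol, and the other 18 are given by their locus code. The 23 without a gene are called by their probe set names. One member, AT2G04460, is annotated as a pseudogene.

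AT4G12490 and AT4G12500 encode small proline-rich lipid transfer proteins of the family that includes AZI1 and EARLI1, which are known from defence and cold responses. The genes lie 2 positions apart in the order of protein-coding genes, and near-identical copies may share signal on an array. In blue light AT4G12490 had 259 and 307 signal units in the double mutant, 1425 and 1233 in cop1-6, 36.4 and 81.0 in atmyc2, and 118 and 53.8 in WT. AT4G12500 had 113 and 98.5 in the double mutant, 453 and 526 in cop1-6, 29.5 and 35.7 in atmyc2, and 41.1 and 24.1 in WT. Both genes were above WT on all 4 arrays of the cop1-6 lines, and both had less signal in the double mutant than in cop1-6, with no overlap. The log2 difference of the double mutant from cop1-6 in blue light was -2.16 for AT4G12490 and -2.02 for AT4G12500, the lowest among the members, whose median was -0.29.

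Several members encode enzymes. CYP71B26 (AT3G26290), a cytochrome P450, had 439 and 462 signal units in the blue-grown double mutant, 526 and 484 in cop1-6, 181 and 225 in atmyc2, and 91.7 and 169.6 in WT. AT5G24210, which encodes a lipase-like protein, had 413 and 356 in the double mutant, 739.7 and 583 in cop1-6, 114 and 125 in atmyc2, and 81.1 and 145 in WT. In both genes the 4 arrays of the cop1-6 lines stood apart from the other 4. AT4G09760, a choline kinase gene of phospholipid synthesis, had 168.5 and 163.9 in the double mutant, 162 and 174 in cop1-6, 88.3 and 99.1 in atmyc2, and 37.0 and 70.0 in WT. Here atmyc2 also lay above both WT arrays. AT5G44390, which encodes a berberine bridge enzyme-like oxidase, had 68.2 and 60.9 in the double mutant, 94.7 and 81.5 in cop1-6, 5.1 and 12.5 in atmyc2, and 9.4 and 22.8 in WT. AT2G29370, a short-chain dehydrogenase gene, had 121 and 55.7 in the double mutant, 83.1 and 64.1 in cop1-6, 20.2 and 8.6 in atmyc2, and 15.6 and 13.6 in WT. For the last 2 genes WT was near or below the dim level, so their folds rest on the floor of 20.

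A further group encodes membrane and vesicle proteins. AT1G70810, which encodes a protein with a C2 lipid-binding domain, had 372 and 231 signal units in the blue-grown double mutant, 411 and 341 in cop1-6, 60.3 and 107 in atmyc2, and 45.0 and 99.4 in WT. AT1G23140, another C2-domain gene, had 206.5 and 31.1 in the double mutant, 132 and 59.4 in cop1-6, 22.0 and 24.7 in atmyc2, and 25.8 and 28.9 in WT. The first was well separated from WT, while the second came within 3 units of WT on 1 double mutant array. AT1G35350 belongs to the PHO1 family of phosphate exporter-like proteins and had 119 and 221 in the double mutant, 172 and 198 in cop1-6, 69.1 and 63.6 in atmyc2, and 36.1 and 46.7 in WT. AT5G40450, known as RBB1 and for its role in vacuole shape, had 124 and 208 in the double mutant, 286 and 308 in cop1-6, 79.4 and 128 in atmyc2, and 24.3 and 68.3 in WT. In this gene the double mutant and atmyc2 arrays overlapped. AT3G28540, an AAA-type ATPase gene, had 67.0 and 71.1 in the double mutant, 127 and 63.2 in cop1-6, 4.6 and 9.7 in atmyc2, and 1.5 and 17.1 in WT. AT4G03410, of the Mpv17 and PMP22 family of organelle membrane proteins, had 91.2 and 100.9 in the double mutant, 98.2 and 99.7 in cop1-6, 46.7 and 44.3 in atmyc2, and 29.8 and 33.1 in WT. AT3G20270, which encodes a protein like the lipopolysaccharide-binding proteins, had 47.5 and 113 in the double mutant, 87.0 and 93.4 in cop1-6, 18.6 and 28.2 in atmyc2, and 15.2 and 29.3 in WT. All of these genes were higher in every array of the blue-grown cop1-6 lines than in either WT array.

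AT2G28720 encodes a histone H2B, a core protein of nucleosomes. It had 105 and 90.1 signal units in the blue-grown double mutant, 117.5 and 122 in cop1-6, 28.7 and 77.1 in atmyc2, and 12.4 and 34.1 in WT. AT3G22550, which encodes an FLZ-type zinc finger protein, had 199.5 and 140.5 in the double mutant, 252 and 175 in cop1-6, 60.2 and 57.7 in atmyc2, and 55.9 and 54.3 in WT. ARPN (AT2G02850) is plantacyanin, a small secreted copper protein known from the reproductive tract. It had 30.4 and 149 in the double mutant, 116 and 90.7 in cop1-6, 13.1 and 17.0 in atmyc2, and 35.5 and 15.8 in WT. For ARPN 1 double mutant array fell below 1 WT array. Of the genes with no role given here, AT5G39520 had 111 and 183 in the double mutant, 166 and 202 in cop1-6, 41.2 and 89.9 in atmyc2, and 57.9 and 21.6 in WT. AT3G14280 had 108 and 83.7 in the double mutant, 139.5 and 90.8 in cop1-6, 28.5 and 29.4 in atmyc2, and 27.3 and 31.0 in WT. The pseudogene AT2G04460 was uneven, with 515 and 97.9 in the double mutant, 501 and 193 in cop1-6, 82.5 and 80.6 in atmyc2, and 65.4 and 66.6 in WT.

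Among members with no listed gene, 245275_at had the highest folds, 25.3 for the double mutant and 48.4 for cop1-6, each against WT at the floor. It had 928 and 83.6 signal units in the double mutant, 1587 and 349 in cop1-6, 1.2 and 7.7 in atmyc2, and 10.7 and 9.4 in WT. Its replicates differed widely in both cop1-6 lines. The probe set 246072_at had 286 and 565.5 in the double mutant, 376 and 381 in cop1-6, 43.7 and 46.5 in atmyc2, and 37.5 and 46.9 in WT. The level of 249850_at was 512 and 231 in the double mutant, 467 and 391 in cop1-6, 80.9 on both atmyc2 arrays, and 36.2 and 47.3 in WT. In both of these atmyc2 lay far below the cop1-6 lines. The choice rested on single arrays for 253416_at, which had 149 and 1.2 in the double mutant and 30.1 and 131 in cop1-6, against 19.2 and 20.3 in WT. The probe set 252746_at had 258 and 22.4 in the double mutant and 75.1 and 199 in cop1-6, against 19.5 and 27.3 in WT. The probe set 246682_at had 195 and 125 in the double mutant, 298 and 201 in cop1-6, 50.1 and 69.8 in atmyc2, and 43.5 and 49.9 in WT. Near the fold limit, 258566_at had 88.5 and 109.8 in the double mutant and 143.5 and 106 in cop1-6, against 24.3 and 33.3 in WT. Likewise 267548_at had 38 and 82.8 in the double mutant and 93.8 and 95.2 in cop1-6, against 11.3 and 12.6 in WT. These 3 were above WT on every array of both cop1-6 lines. The smaller fold of all members without a gene apart from 245275_at, 246072_at and 249850_at lay between 3.02 (267548_at) and 7.81 (245038_at). The probe sets 252746_at, 253416_at, 262369_at, 246071_at and ARPN were the 5 members whose arrays overlapped with WT.

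**Figure D3:**
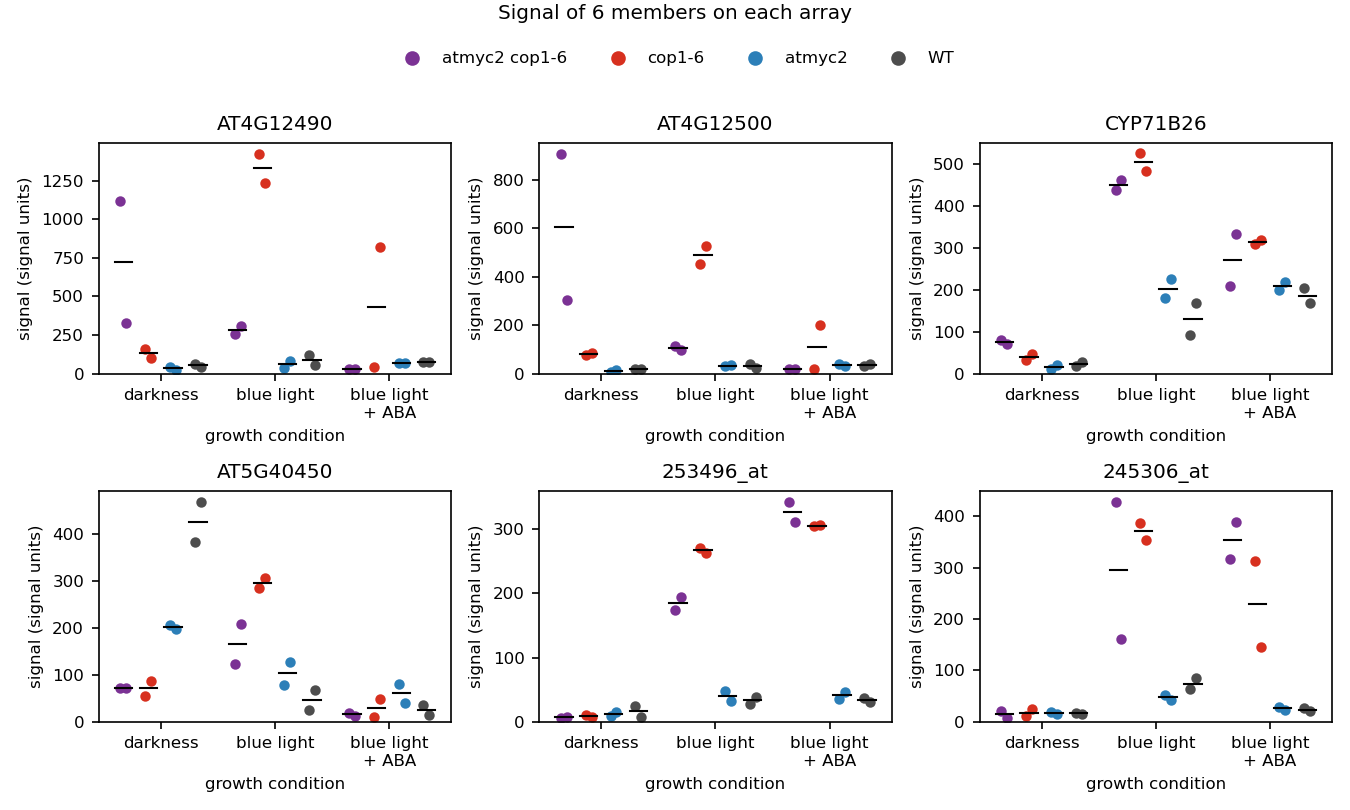
Signal, in signal units, of 6 members on each array (points) and the mean of each group of 2 arrays (lines), by growth condition and line. AT4G12490 and AT4G12500 are highest in blue-grown cop1-6 or dark-grown double mutant, while 253496_at and 245306_at are above WT in the cop1-6 lines in blue light both with and without ABA.

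Members just inside the fold limit were AT4G03410, with a smaller fold of 3.05, and AT3G22550 at 3.09. Just outside lay SAG29 at 2.98 and AAE16 at 2.92. AT4G03410 and CYP71B26 were also nearest to the ABA limit from inside, with WT ratios of 1.48 and 1.43. Nearest outside were AT1G54410 at 1.55 and AT4G18930 at 1.63.

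Comparisons between groups of arrays that had no part in the choice were tested with limma, and all others are given as a description. The test used log2 of the signal plus 20, a scale that understates changes of dim probe sets. The group means came from those arrays, but the standard errors drew on the spread within all 12 groups, those of the choice included. Adjusted p-values were taken over 16196 probe sets whose mean passed the dim level in at least 1 group. All 43 members passed this filter, as their blue light levels ensured. A member was called higher or lower at an adjusted p under 0.05.

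In darkness, cop1-6 was compared with WT to ask whether the members were also high without light. Of the 43 members 3 were higher and 3 lower, 6.98% each, where 15.3% of all tested probe sets were higher and 15% lower. The members' median log2 difference was 0.09, against -0.03 over all probe sets. AT3G22550 had 64.4 and 59.2 signal units in cop1-6 and 19.6 and 28.1 in WT, a log2 difference of 0.91 ± 0.20 (SE, adjusted p = 0.00206). Its cop1-6 arrays were both above the WT arrays. The other higher members were 248625_at at 1.01 and 254250_at at 0.68, both dim in WT. AT5G40450 ran the other way to blue light, with 55.6 and 86.9 in dark-grown cop1-6 and 383 and 470.1 in WT. This gave a log2 difference of -2.31 ± 0.39 (SE, adjusted p = 3.23e-04). The other lower members were 250666_at and 262096_at, at -1.07 each. Without WT dark replicate 2 or with a pseudocount of 64, 1 member was higher. With a pseudocount of 1, 8 were higher, with quantile normalization 5, and with only these arrays fitted 7.

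The same mutation was compared in the atmyc2 background, as double mutant against atmyc2 in darkness. Here 14 members were higher and 2 lower, or 32.6% and 4.65%, where 27.6% of all tested probe sets were higher and 17.6% lower. The share of higher members was thus near that of all probe sets, and in the comparison set it was 31.9%. AT4G12500 had 909 and 305 signal units in the double mutant and 7.3 and 15.5 in atmyc2, a log2 difference of 4.14 ± 0.59 (SE, adjusted p = 6.67e-05). AT4G12490 had 1117 and 329 in the double mutant and 41.7 and 24.6 in atmyc2, a log2 difference of 3.59 ± 0.87 (SE, adjusted p = 0.00410). Replicate 1 of the double mutant was about 3 times replicate 2 for both lipid transfer protein genes, and neither replicate overlapped with atmyc2. The probe set 245038_at had 179 and 103.5 in the double mutant and 10.0 and 11.8 in atmyc2, a log2 difference of 2.34 ± 0.46 (SE, adjusted p = 7.74e-04). AT5G24210 was higher by 1.69 ± 0.30 (SE, adjusted p = 1.43e-04), at 62.2 and 37.3 in the double mutant and 1.2 and 1.4 in atmyc2. CYP71B26 was higher by 1.45 ± 0.23 (SE, adjusted p = 4.16e-05), at 79.9 and 71.0 in the double mutant and 10.1 and 20.3 in atmyc2. AT1G70810 was higher by 1.44 ± 0.30 (SE, adjusted p = 6.33e-04), at 92.2 and 63.3 in the double mutant and 12.6 and 18.8 in atmyc2. All 6 were dim in dark-grown atmyc2 apart from AT4G12490. The lower members were AT5G40450, with 71.4 and 71.8 in the double mutant and 206 and 197.5 in atmyc2, and 262096_at. AT5G40450 and 262096_at were thus lower with cop1-6 in darkness in both backgrounds, at -1.28 and -0.96 in this one. In this background the call of 262096_at held under 12 of 12 alternatives. That of AT5G40450 held under 7 of 12 and was lost with a pseudocount of 1, among others. Without atmyc2 dark replicate 1, 9 members were higher, and without double mutant dark replicate 1, 7 were. Leaving out any 1 of these 4 arrays left 1 member lower.

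The effect of cop1-6 in darkness was then compared between the 2 backgrounds, as the difference between those 2 differences. For 4 members it was higher in the atmyc2 background and for 1 it was lower, where 7.26% of all tested probe sets were higher and 5.08% lower. The higher members were 245038_at (2.98 ± 0.65, SE, adjusted p = 0.0110), AT4G12500 (2.78 ± 0.83, adjusted p = 0.0454), 250666_at (1.79 ± 0.32, adjusted p = 0.00245) and AT1G70810 (1.59 ± 0.42, adjusted p = 0.0209), on the log2 scale. AT3G22550 was the lower one, at -0.97 ± 0.29 (SE, adjusted p = 0.0334). It had 25.8 and 37.0 signal units in the dark-grown double mutant, 64.4 and 59.2 in cop1-6, 40.5 and 27.2 in atmyc2, and 19.6 and 28.1 in WT. Only cop1-6 stood above the other lines for this gene. The probe set 250666_at had 87.7 and 71.5 in the double mutant, 30.1 and 62.4 in cop1-6, 32.9 and 48.6 in atmyc2, and 114 and 116 in WT. It was thus low in both single mutants in darkness. Leaving out 1 array gave 1 to 5 higher and 0 or 1 lower members. It gave 2 higher without either WT dark replicate or atmyc2 dark replicate 1, and 1 higher without replicate 1 of cop1-6 or of the double mutant. Without WT, atmyc2, cop1-6 or double mutant dark replicate 1, 0 members were lower. With only these arrays fitted 11 were higher, and with a pseudocount of 1, 7.

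Loss of AtMYC2 was also tested in darkness, with intact COP1 and with cop1-6. In atmyc2 against WT 0 members were higher and 1 was lower by limma, where 4.52% of all tested probe sets were higher and 4.99% lower. At an unadjusted p under 0.05 the members' counts were 0 and 4. They were then 1532 and 2402 over all 16196 tested probe sets, and 0 and 32 in the comparison set of 144. The lower member was 250666_at, at 32.9 and 48.6 signal units in atmyc2 and 114 and 116 in WT, a log2 difference of -1.16 ± 0.23 (SE, adjusted p = 0.00283). It missed the threshold without atmyc2 dark replicate 1, which left 0 members lower. In the double mutant against cop1-6 in darkness 3 members were higher and 0 lower by limma, where 1.89% of all tested probe sets were higher and 0.648% lower. At an unadjusted p under 0.05, 8 members were higher and 1 lower. Of all 16196 tested probe sets 1959 were higher and 1105 lower at that level, and of the comparison set of 144, 26 and 2. The 3 higher members were 245038_at (2.65 ± 0.46, SE, adjusted p = 0.00924), AT4G12500 (2.46 ± 0.59, adjusted p = 0.0457) and AT1G70810 (1.31 ± 0.30, adjusted p = 0.0259). In these groups 245038_at had 179 and 103.5 signal units in the double mutant and 1.4 and 9.1 in cop1-6. Without cop1-6 or double mutant dark replicate 1, 0 of the 3 passed. The call of AT4G12500 held under 5 of 12 alternatives, with adjusted p-values of 0.0166 to 0.386, and was lost with a pseudocount of 1, no dim filter, quantile normalization, a replicate block and without cop1-6 dark replicate 2. The spike-in signal differed little within each of these pairs of groups, with 862 to 869.7 in atmyc2 and 914 to 986 in WT, and with 209 to 254 in the double mutant and 259.9 to 338 in cop1-6. In blue light, where WT arrays chose the members, atmyc2 was above WT in 33 members and below it in 10, with a median log2 difference of 0.19. In the comparison set atmyc2 was above WT in 121 of 144 with a median of 0.30. Over all tested probe sets it was above WT in 9659 of 16196, with a median of 0.06.

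**Figure D4:**
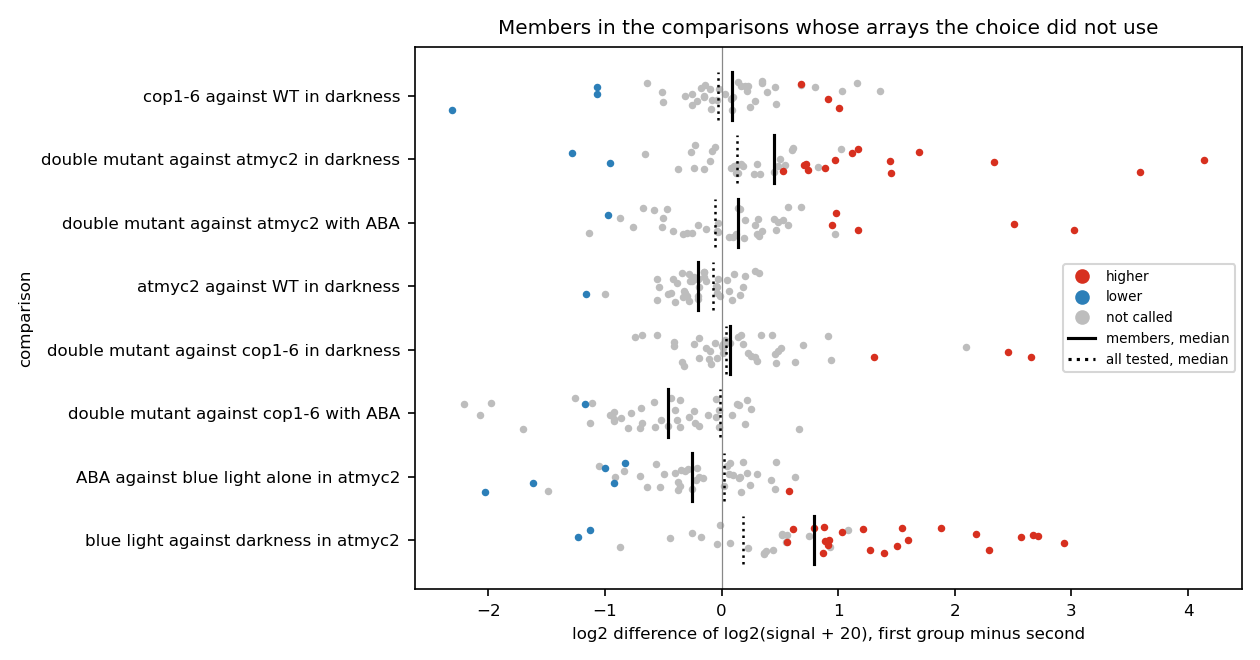
Log2 difference of each member (points) in 8 comparisons whose arrays the choice did not use, coloured by the limma call, with lines at the median of the members and of all 16196 tested probe sets. With ABA the double mutant has 5 higher members against atmyc2, of which 245306_at (3.02) and 253496_at (2.51) stand farthest from 0.

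Blue light against darkness was tested in atmyc2, whose arrays had no part in the choice. Of the members 22 were higher in blue light and 2 lower, or 51.2% and 4.65%, where 34.3% of all tested probe sets were higher and 21.8% lower. In the comparison set 52.1% were higher, close to the share of the members. The members' median log2 difference was 0.79, against 0.18 over all probe sets. AT5G24210 had 114 and 125 signal units in blue-grown atmyc2 and 1.2 and 1.4 in darkness, a log2 difference of 2.71 ± 0.30 (SE, adjusted p = 3.36e-07). CYP71B26 had 181 and 225 in blue light and 10.1 and 20.3 in darkness, a log2 difference of 2.67 ± 0.23 (SE, adjusted p = 8.28e-09). The probe set 250255_at had 100.1 and 149 in blue light and 2.5 and 5.6 in darkness, a log2 difference of 2.57 ± 0.22 (SE, adjusted p = 5.12e-09). All 3 had no overlap between the conditions. AT4G09760 (1.21), AT2G28720 (1.03), AT4G03410 (0.79) and 246682_at (0.61) also rose. The 2 lower members were 262096_at (-1.23) and 262630_at (-1.13). AT4G12490 (0.52 ± 0.87, SE) and AT4G12500 (0.75 ± 0.59) did not pass the test, with adjusted p-values of 0.630 and 0.295. Without atmyc2 blue replicate 2, 13 members were higher, and without that array or atmyc2 dark replicate 1, 1 was lower.

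In the cop1-6 lines the difference between blue light and darkness contains the arrays that chose the members, and it is given as a description. Its median log2 was 1.69 in the double mutant and 1.96 in cop1-6, and 0.46 in WT. In cop1-6 41 members were at least 1 log2 higher in blue light, and in the double mutant 31 were. AT4G12490 and AT4G12500 ran the other way in the double mutant, where AT4G12490 had 259 and 307 in blue light, against 1117 and 329 in darkness. AT4G12500 had 113 and 98.5 in blue light, against 909 and 305 in darkness.

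ABA was tested against blue light alone in atmyc2, which repeats the WT comparison of the choice in other arrays. Of the members 1 was higher with ABA and 5 lower, where 13.4% of all tested probe sets were higher and 12.5% lower, and the members' median log2 difference was -0.25. In the comparison set of 144 probe sets above the ABA limit in WT, 109 were higher in atmyc2 and 0 lower by limma, with a median of 1.26. At an unadjusted p under 0.05, 126 of these were higher and 0 lower, and of all 16196 tested probe sets 3250 and 2935. The split made in WT arrays was thus also seen in atmyc2. The lower members were 246071_at (-2.03 ± 0.63, SE, adjusted p = 0.0299), 245038_at (-1.62 ± 0.46, adjusted p = 0.0186), AT5G39520 (-1.0 ± 0.32, adjusted p = 0.0281), 254250_at (-0.92 ± 0.22, adjusted p = 0.00390) and AT1G70810 (-0.83 ± 0.30, adjusted p = 0.0470). For 246071_at the signal was 62.0 and 51.5 with ABA and 288 and 297.5 without. AT5G39520 had 21.6 and 20.7 with ABA and 41.2 and 89.9 without. AT5G44390 was the higher member, at 26.5 and 19.1 with ABA and 5.1 and 12.5 without (0.58 ± 0.21, adjusted p = 0.0439), all near or below the dim level. Without atmyc2 blue replicate 2 or atmyc2 ABA replicate 1, 1 member was lower, and without ABA replicate 2, 0 were. The higher member missed the threshold without atmyc2 blue replicate 1 or without either ABA replicate. With only these arrays fitted, 4 were higher and 12 lower.

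**Figure D5:**
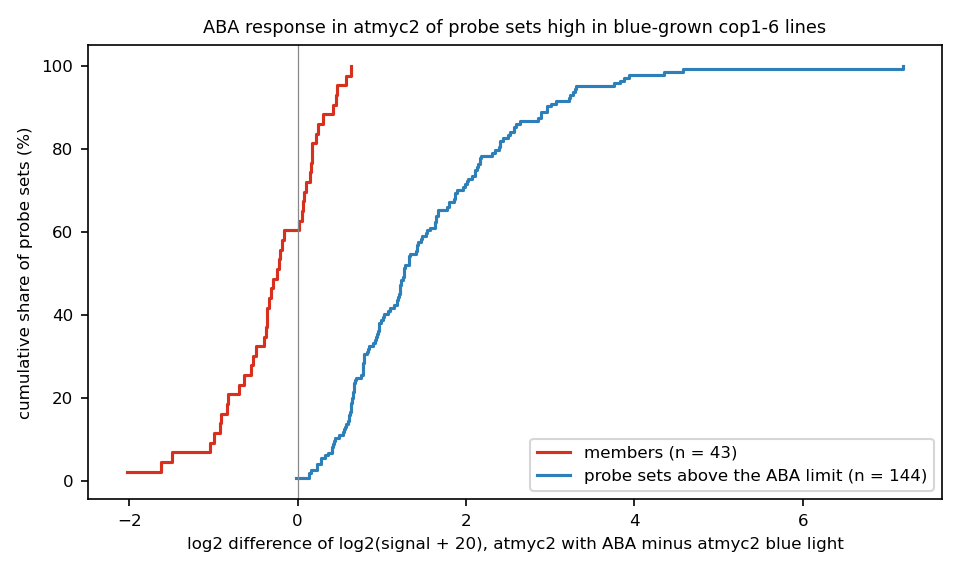
Cumulative share, in percent, of probe sets by their log2 difference between atmyc2 with ABA and atmyc2 in blue light alone, for the 43 members and the 144 probe sets above the ABA limit in WT. The members have a median of -0.25 and the 144 a median of 1.26.

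The effect of cop1-6 with ABA was tested in the atmyc2 background. In the double mutant against atmyc2 with ABA 5 members were higher and 1 lower, or 11.6% and 2.33%, where 1.63% of all tested probe sets were higher and 3.17% lower. In the comparison set 11.1% were higher, close to the share of the members. The spike-in signal was alike, at 87.1 to 96.8 in the double mutant and 80.4 to 91.0 in atmyc2. The 25S signal was 1601 and 1434 in the double mutant and 1970.1 and 2561 in atmyc2, and its part was not tested. The probe set 253496_at had 343 and 311 signal units in the double mutant and 35.7 and 46.3 in atmyc2, a log2 difference of 2.51 ± 0.19 (SE, adjusted p = 4.46e-07). The probe set 245306_at had 317.5 and 389 in the double mutant and 29.2 and 22.4 in atmyc2, a log2 difference of 3.02 ± 0.35 (SE, adjusted p = 1.33e-04). These 2 kept the call under every alternative run, including without any 1 of the 4 arrays, and the other 3 did not. AT3G20270 had 83.9 and 99.3 in the double mutant and 37.3 and 37.9 in atmyc2, a log2 difference of 0.95 ± 0.25 (SE, adjusted p = 0.0297). The others were 249850_at (0.98) and 248625_at (1.17). The lower member was 262096_at, with 17.9 and 16.7 in the double mutant and 54.9 and 50.8 in atmyc2 (-0.97 ± 0.24, SE, adjusted p = 0.0228). Without any 1 of the 4 arrays, 2 members were higher and 0 lower. When only these 4 arrays were fitted, 14 members were higher and 10 lower, and with a pseudocount of 1, 2 were higher. At an unadjusted p under 0.05, 10 members were higher and 4 lower. Of all 16196 tested probe sets 1184 were higher and 2093 lower at that level, and of the comparison set of 144, 43 and 7.

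Most members had low signal in the double mutant with ABA, although they were high there in blue light alone. As a description, the log2 difference between ABA and blue light alone had a median of -1.46 in the double mutant and -1.23 in cop1-6, and -0.05 in WT. It was at or below -1 in 30 members in the double mutant and in 26 in cop1-6. These counts were 770 and 510 over all 16196 tested probe sets, and 8 and 6 in the comparison set of 144. Members were chosen high in the blue arrays, so part of a fall below them is built into the choice. In the comparison set, chosen by the same blue light folds but for a higher WT ratio with ABA, the medians were 0.18 in the double mutant and 0.08 in cop1-6, so the gap between the sets also draws on the choice. The probe set 246072_at had 5.2 and 3.6 signal units in the double mutant with ABA, against 286 and 565.5 without. AT2G04460 had 11.9 and 11.2 with ABA, against 515 and 97.9 without. AT4G12490 had 29.3 and 27.0 with ABA, against 259 and 307 without. The exceptions were 253496_at, 245306_at and AT3G20270, whose mean signals in the double mutant were higher with ABA, with log2 differences of 0.76, 0.39 and 0.23. Of these only 253496_at had no overlap, at 343 and 311 with ABA and 174 and 194 without. For 245306_at the arrays with ABA (317.5 and 389) lay between those without (428 and 160.4). AT3G20270 was alike in this, at 83.9 and 99.3 with ABA and 47.5 and 113 without. ARPN had 73.3 and 75.7 with ABA in the double mutant and 30.4 and 149 without, so its arrays with ABA lay between the other 2. The same held for 253416_at, at 54.4 and 51.4 with ABA and 149 and 1.2 without.

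The 2 cop1-6 arrays with ABA differed for many members. Replicate 2 was at least 2 times replicate 1 in 16 members, and the opposite held in 5. Against the WT mean with ABA, the median log2 difference was 0.26 for replicate 1 and 0.98 for replicate 2. AT4G12490 had 39.1 and 819.6 signal units in cop1-6 with ABA and 77.5 and 76.0 in WT. AT4G12500 had 18.5 and 202 in cop1-6 and 33.1 and 41.0 in WT, and 264505_at had 40.3 and 440.4 in cop1-6 and 26.1 and 24.4 in WT. In these members 1 array was near WT and the other far above it. CYP71B26 had 309 and 319 in cop1-6 and 204 and 169 in WT, and AT3G22550 had 371 and 274 in cop1-6 and 67.6 and 68.2 in WT, so these were even. The probe set 253496_at had 305.5 and 306 in cop1-6 and 36.2 and 30.3 in WT. As a description, since the WT arrays were part of the choice, cop1-6 was above WT with ABA in 40 of 43 members, by a median log2 of 0.67 and by at least 1 in 15. In the comparison set cop1-6 was above WT in 125 of 144 with a median of 0.40, and over all tested probe sets in 8046 of 16196. Each array of this pair was nearest to an array of another line. This was not particular to the pair, as it also held for both blue light arrays of WT, of atmyc2 and of the double mutant. Whether the labels of the pair are right was not tested.

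In the double mutant against cop1-6 with ABA, 0 members were higher and 1 lower by limma, where 0.0803% of all tested probe sets were higher and 0.142% lower. At an unadjusted p under 0.05, 0 members were higher and 15 lower. Of all 16196 tested probe sets 786 were higher and 856 lower at that level. In the comparison set of 144 these counts were 2 and 27. The members' median log2 difference was -0.46, against -0.15 in the comparison set and -0.01 over all probe sets. The lower member was AT3G22550, with 148 and 116 signal units in the double mutant and 371 and 274 in cop1-6, a log2 difference of -1.17 ± 0.20 (SE, adjusted p = 0.0241). Without replicate 1 of cop1-6, 16 members were lower and 1 higher, and without either double mutant replicate 0 were lower. The count thus rests on which cop1-6 array is used.

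Finally, the effect of cop1-6 in the atmyc2 background was compared between ABA and darkness. For 10 members it was lower with ABA and for 2 higher, where 19.8% of all tested probe sets were lower and 10.5% higher. The share of lower members, 23.3%, was near that of all probe sets. The 2 higher members were 245306_at (3.11 ± 0.49, SE, adjusted p = 1.88e-04) and 253496_at (2.77 ± 0.27, adjusted p = 7.43e-07). Of the lower ones AT4G12500 (-4.66 ± 0.83, SE, adjusted p = 0.00101) and AT4G12490 (-4.45 ± 1.22, adjusted p = 0.0147) had the largest differences. AT4G12500 had 17.0 and 20.3 signal units in the double mutant with ABA and 40.2 and 30.5 in atmyc2, against 909 and 305 in the dark-grown double mutant and 7.3 and 15.5 in atmyc2. The others were 245038_at (-2.20), AT1G35350 (-1.79), 264261_at (-1.78), 251248_at (-1.50), AT5G24210 (-1.21), 254250_at (-1.39), CYP71B26 (-1.14) and 250666_at (-1.14). Without atmyc2 or double mutant dark replicate 1, 4 members were lower, and without double mutant ABA replicate 1, 5 were. With only these arrays fitted 16 were lower and 6 higher, and with a pseudocount of 64, 6 were lower.

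Known pathways were looked up in 12 lists of genes together with the markers, in all 196 loci, of which 31 had a tested probe set. None of the lists held a member, but the 23 members with no listed gene could not be matched to any list. No probe set was found for the lists of camalexin and indole glucosinolates, oxidative stress and phosphate starvation. The same held for the green shoot and seed markers. The lack of a match therefore does not place the members outside these pathways. Of 7 genes of flavonoid and anthocyanin synthesis, 6 were higher in the double mutant than in atmyc2 with ABA by limma, with a median log2 difference of 1.59. Of 4 ABA-responsive genes 2 were higher in that comparison. The members' median was 0.14, and that of these 4 genes was 1.14. Of 4 nuclear photosynthesis genes all 4 were higher in the double mutant than in atmyc2 in darkness (median 2.46), and 1 was lower with ABA.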

How the data were processed

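Signal intensities, 1 per probe set and array, were used as the authors deposited them. Per the submitters' processing notes, the authors made the intensities with GCOS 1.4. The mean without the lowest and highest 2% of values was 100.0 on all 24 arrays, so the arrays were treated as scaled and no further normalization was applied. With arrays, precision is limited by their number, 2 a group. Values were used as log2 of the signal plus 20, and R 4.3.3 with limma 3.58.1 fitted 12 group means over all arrays with empirical Bayes moderation (trend and robust) and Benjamini-Hochberg adjustment over 16196 probe sets. The 64 controls were left out, as were probe sets below the 40th percentile in every group. The fit was tested on simulated data. In all, 10 comparisons were tested, and alternatives were another pseudocount (1 or 64), dim filter, normalization, moderation, a replicate block, only the arrays compared, each array left out, and other limits of the rule.

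Members, lists and tests were chosen with earlier results of these data known. Genes were named from the platform annotation with TAIR10.1 locus codes: over the array 13513 probe sets had 1 gene, 503 several and 8794 none. Members with 1 gene are named by symbol or locus and the rest by probe set, a choice made once the annotation was known. Members the results turn on are given by name, and the others by counts and ranges. Promoter motifs planned for the members were not run, and no sequence is shown.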

Additional observations from a re-analysis of the deposited data

Results flagged for a closer look

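For 5 members the effect of cop1-6 in darkness differed between the atmyc2 and the WT background, as tested by limma over 16196 probe sets. It was higher in the atmyc2 background in 9.30% of members and lower in 2.33%, against 7.26% and 5.08% of all tested probe sets. The log2 difference between the effects was 2.98 for 245038_at, 2.78 for AT4G12500, 1.79 for 250666_at, 1.59 for AT1G70810 and -0.97 for AT3G22550. For 250666_at the call held without any 1 array, and for AT4G12500 it held under 6 of 16 alternatives.

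For 12 members the effect of cop1-6 in the atmyc2 background differed between ABA and darkness. It was higher with ABA in 4.65% of members and lower in 23.3%, against 10.5% and 19.8% of all tested probe sets. The effect was more positive with ABA by 3.11 on the log2 scale for 245306_at and by 2.77 for 253496_at. It was less positive for AT4G12500 (-4.66), AT4G12490 (-4.45), 245038_at (-2.20), AT1G35350 (-1.79), 264261_at (-1.78), 251248_at (-1.50), 254250_at (-1.39), AT5G24210 (-1.21), CYP71B26 (-1.14) and 250666_at (-1.14). Spike-in control signal was 87.1 to 96.8 in the double mutant with ABA and 80.4 to 91.0 in atmyc2, against 209 to 254 in the dark-grown double mutant and 862 to 869.7 in atmyc2. Its part in these differences was not tested. Groups had 2 arrays, so single arrays were not tested as outliers.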

How the results depend on the processing

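Of 80 called member values, 33 passed the threshold under every alternative run, 47 were lost without at least 1 array, and 0 changed sign. With a pseudocount of 1, 7 calls were lost, and with 64, 22. Quantile normalization lost 14, no dim filter 6, a filter at the 60th percentile 1, the arrays compared alone 3, and moderation without trend and robust 0. Why counts moved was not tested.

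With a pseudocount of 1, the higher members were 8 (main value 3) for cop1-6 against WT in darkness, 2 (5) for the double mutant against atmyc2 with ABA, 1 (0) for atmyc2 against WT in darkness and 7 (4) for the difference of the cop1-6 effect between backgrounds. The lower members were 2 (1) for atmyc2 against WT in darkness and 2 (1) for the double mutant against cop1-6 with ABA. With a pseudocount of 64, 1 member was higher in cop1-6 against WT in darkness and 0 in ABA against blue light in atmyc2. The lower members were then 0 for the double mutant against atmyc2 with ABA, 2 for atmyc2 against WT in darkness, 2 for ABA in atmyc2, 0 for the difference between backgrounds and 6 for the difference between ABA and darkness. Quantile normalization gave 5 higher in cop1-6 against WT in darkness, 0 higher for ABA in atmyc2 and 4 lower for blue light in atmyc2. With no dim filter, or the filter at the 60th percentile, 0 members were higher for ABA in atmyc2. When only the arrays compared were fitted, higher members were 7 for cop1-6 against WT in darkness, 14 for the double mutant against atmyc2 with ABA, 4 for ABA in atmyc2, 11 for the difference between backgrounds and 6 for that between ABA and darkness. Lower members were then 10 for the double mutant against atmyc2 with ABA, 2 for atmyc2 against WT in darkness, 0 for the double mutant against cop1-6 with ABA, 12 for ABA in atmyc2, 4 for blue light in atmyc2 and 16 for the difference between ABA and darkness.

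Leaving out 1 array gave 1 to 3 higher and 3 to 4 lower members for cop1-6 against WT in darkness, 7 to 12 and 1 to 1 for the double mutant against atmyc2 in darkness, and 2 to 2 and 0 to 0 with ABA. It gave 0 to 0 and 0 to 1 for atmyc2 against WT in darkness, 0 to 3 and 0 to 0 for the double mutant against cop1-6 in darkness, and 0 to 1 and 0 to 16 with ABA. For atmyc2 it gave 0 to 1 and 0 to 4 for ABA and 13 to 18 and 1 to 2 for blue light. For the difference between backgrounds it gave 1 to 5 and 0 to 1, and for that between ABA and darkness 2 to 2 and 4 to 9.

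The number of members was 28 to 53 when 1 array of the rule was left out, 26 with a floor of 40, 253 with a fold of 2 and 11 with a fold of 4. Counting only the 38 members whose arrays did not overlap in blue light, chosen after seeing the data, kept every count within 1.5 times. Replicate numbers were not treated as pairs in the main fit. Replicate differences of 2 groups correlated at -0.242 to 0.434, over 0.1 in 9 of 66 pairs. Whether some groups shared a replicate effect was not tested. With a replicate block 4 calls were lost, 15 members (14 without it) were higher in the double mutant against atmyc2 in darkness, and 4 (5) with ABA. Probe sets near the dim level are limited by signal over background.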
